A study of Mus musculus with 15 samples.

Results

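The genotype label effect in the F libraries of a Pgr mouse series is described here over the genes it measured, with most room given to genes outside the Pgr locus. The comparison uses 7 of the 15 libraries, which were chosen by their labels: 4 are labelled Pgr_KO and female, and 3 are labelled Pgr_WT and female. The other 8 libraries, 4 labelled Pgr_KO and male and 4 labelled Pgr_WT and male, are set beside them where a second set of libraries bears on a value. All groups share the same material, nuclei of mouse ventricular muscle sorted for Pcm1, a centriolar satellite protein that marks cardiomyocyte nuclei, with ribosomal RNA removed from the total RNA. The labels give no allele, age, treatment or animal number, and the tissue label holds an unexplained range of numbers, so it is not known whether a library pools several hearts. No label says that replicates came from separate animals, so p-values measure only the spread between these samples, which may be technical.

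The progesterone receptor is a nuclear receptor that binds progesterone, moves to hormone response elements in the genome and switches the transcription of nearby genes. It is best known from the uterus, ovary, mammary gland and brain, where chaperones such as Fkbp4 hold the receptor ready and coregulators such as Ncoa1 and Ncor1 join it on DNA. The glucocorticoid and mineralocorticoid receptors recognise much the same DNA element and are expressed in heart muscle cells. In nuclear RNA most reads come from unspliced transcripts, so counts over whole gene bodies weigh long genes heavily.

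Pgr reads ran against the labels, so every direction below is that of the label. Pgr had 8.69, 11.9, 12.5 and 10.6 CPM (counts scaled to library sizes with TMM factors, the unit used throughout) in the KO-label libraries, against 0.116, 0.267 and 0 CPM in the WT-label libraries. The means were 10.9 ± 1.67 CPM under the KO label and 0.128 ± 0.134 CPM under the WT label (SD, n = 4 and 3). The groups did not overlap, and the two-sided exact permutation test gave p = 0.0286, the smallest that 35 arrangements allow (0.0857 adjusted over 3 genes). Which libraries carry the deleted allele cannot be told from these reads, since a swap of labels and reads from a retained part of the gene cannot be told apart.

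Total counts in the F libraries ranged from 24.4 to 55.4 M with a median of 47.5 M, and 3 counts in a library stood for 0.0541 to 0.123 CPM. Libraries differed in their content of other cells: Pecam1, an adhesion molecule of endothelial cells, had 38.6 to 87.8 CPM on library totals in 3 libraries and 2.77 to 7.07 CPM in 4. KO-label libraries 1 and 2 and WT-label library 1 stood at or above the threshold of 20 CPM and are called high-content, and this term was fitted beside the label. These levels split along principal component 1, with 67.8% of the variance, and 2307 of 16553 genes (13.9%) were called higher in the high-content libraries and 100 (0.604%) lower. The markers of heart muscle were present in each library, with a summed level of 10 cardiomyocyte markers of 47969 to 77737 CPM, lowest in KO-label library 2. Reads of Y-linked genes stood at 3.07% of the M mean in KO-label library 2 and at 3.07% in WT-label library 2, against at most 0.254% in the other 5 F libraries. In bulk nuclei, fewer nuclei of a type and less RNA per nucleus cannot be told apart.

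Within the low-content level, other-cell markers had different sums under the labels. The 25 endothelial markers summed to 44.0 and 65.6 CPM in KO-label libraries 3 and 4 and to 82.7 and 120 CPM in WT-label libraries 2 and 3. The 31 fibroblast markers summed to 225 and 270 CPM in the same KO-label libraries and to 323 and 365 CPM in the same WT-label libraries. Both KO-label libraries thus lay below both WT-label libraries. In the fit, 24 of 25 endothelial and 30 of 31 fibroblast markers had negative log2 fold changes, and 14 of 17 leukocyte and 11 of 13 epicardial markers did. With each library left out in turn the endothelial median ran between -1.06 (without WT-label library 1) and -0.18 (without WT-label library 3), and the fibroblast median between -0.67 (without WT-label library 1) and -0.10 (without KO-label library 3). Without the content term, 25 of 25 endothelial and 30 of 31 fibroblast markers were positive. High-content libraries were 2 of 4 under the KO label and 1 of 3 under the WT label, and their part in this turn was not tested.

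**Figure D1:**
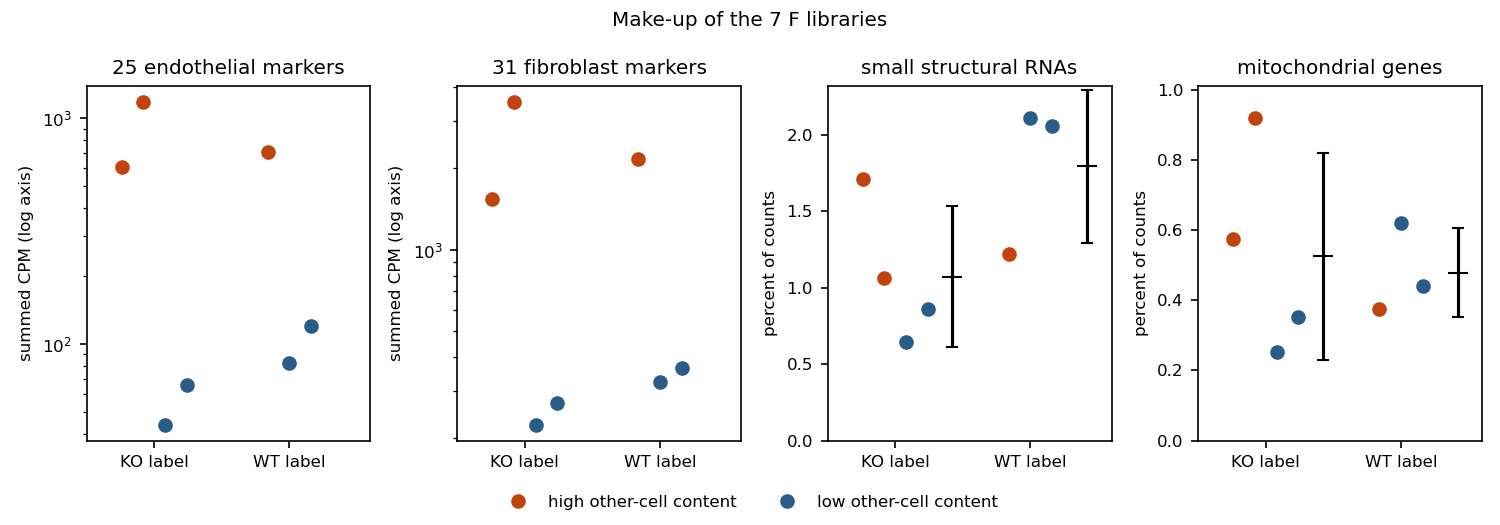
Points are the 7 F libraries, KO label left and WT label right, coloured by other-cell content; the panels show summed CPM of endothelial and of fibroblast markers (log axes), and the percent of counts in small structural RNAs and in mitochondrial genes, with mean and SD as bars in the percent panels. Among the low-content libraries the KO-label points lie below the WT-label points in all 4 panels, with small structural RNAs at 0.647% and 0.861% against 2.11% and 2.06%.

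The question of which genes follow the genotype label had 1 answer in the F libraries. Of 16553 genes tested by edgeR's quasi-likelihood test with label and content as terms, 1 (0.00604%) was called at an adjusted p below 0.05. That gene was Pgr, which rose under the KO label by 6.73 ± 0.598 on the log2 scale (SE, adjusted p = 0.0156). Beyond 1 Mb of Pgr 0 genes were called, and the smallest adjusted p there was 0.99973. At an unadjusted p below 0.05 stood 339 genes (2.05%), 106 higher (0.64%) and 233 lower (1.41%), where 828 would be expected with no differences at all. DESeq2 with the same terms called 4 genes and limma-voom called 0. DESeq2's other 3 were Gm19324 (adjusted p = 0.00701), Gm14005 (0.00701) and Mroh7 (0.00937). The call of Pgr ended when KO-label library 3 (adjusted p = 0.129), KO-label library 4 (0.213) or WT-label library 1 (0.185) was left out, while its log2 fold change stayed between 5.79 and 8.01 when each library was left out in turn.

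The limits of this comparison can be read from its intervals. The median SE of a log2 fold change was 0.232, with 4 residual degrees of freedom among samples. The 95% interval lay within a doubling or halving, ±1 on the log2 scale, for 72.2% of the tested genes, and within 1.5-fold for 36.8%. For the other genes the interval reached past ±1, so it leaves room for a change beyond 2-fold.

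The neighbourhood of Pgr held further values that followed the label. Of 11 tested genes within 1 Mb of Pgr, 4 had an unadjusted p below 0.05 (36.4%), against 2.01% of genes on other chromosomes. Pgr itself is included in both the 11 and the 4. Gm19324, a predicted gene on chromosome 9 (8142541 to 8185129, GRCm38), had 1.17, 0.376, 0.973 and 1.40 CPM in KO-label libraries and 3.57, 4.27 and 3.04 CPM in WT-label libraries. The groups did not overlap and the log2 fold change was -1.87 ± 0.38 (adjusted p = 0.99973). Cep126, a centrosomal protein gene (chromosome 9, 8076461 onward), averaged 14.1 ± 3.65 CPM under the KO label and 23.0 ± 6.48 CPM under the WT label, with a log2 fold change of -0.63 ± 0.19. The M libraries, which share no sample, gave log2 fold changes of -1.12 ± 0.32 for Gm19324 and -0.76 ± 0.14 for Cep126. Gm16485, a predicted gene 3′ of Pgr on the same strand, averaged 0.278 ± 0.164 CPM under the KO label and 0.0192 ± 0.0194 CPM under the WT label, with 59 reads over the KO-label libraries and 2 over the WT-label libraries.

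Since no gene outside the locus was called, the 15 genes with the smallest p in each direction are described as values only. Of these, 10 of 15 higher and 9 of 15 lower genes span over 50 kb, against 29.4% of all tested genes. That share includes genes below 1 CPM and genes with predicted names, which the choice of the named genes left out. Sntb1 encodes beta-1-syntrophin, an adaptor of the dystrophin complex at the muscle membrane. It had 99.2, 141, 121 and 116 CPM in KO-label libraries and 72.2, 92.8 and 67.3 CPM in WT-label libraries. Each KO-label value was above each WT-label value, and the log2 fold change was 0.62 ± 0.18 (adjusted p = 0.99973 by edgeR, as for each gene named outside the locus). Fggy, a kinase of five-carbon sugars, had 63.0, 60.9, 76.7 and 69.7 CPM in KO-label libraries and 50.4, 48.9 and 38.6 CPM in WT-label libraries. Its groups did not overlap either, with a log2 fold change of 0.55 ± 0.16.

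Of the 15 higher genes, 5 had no overlap between the groups, where 0.894% of all tested genes did so in this direction. Compared within each content level, 13 of the 15 had none, against 4.02% of all tested genes. Cdh20, a cadherin of cell contacts, had 58.3, 59.4, 57.5 and 39.1 CPM in KO-label libraries and 27.6, 38.1 and 38.9 CPM in WT-label libraries, with KO-label library 4 close to the WT-label values. Casc4 averaged 17.3 ± 7.50 CPM under the KO label and 8.59 ± 0.964 CPM under the WT label. Wdr72, a WD-repeat protein needed for tooth enamel, averaged 10.7 ± 1.01 CPM under the KO label and 7.46 ± 2.36 CPM under the WT label. These genes were picked for small p, so their lack of overlap is a description.

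The other higher genes overlapped between the groups. Il15, a cytokine of natural killer and muscle cells, averaged 236 ± 44.6 CPM under the KO label and 139 ± 46.2 CPM under the WT label. Ano4, an anoctamin membrane protein, averaged 555 ± 195 CPM under the KO label and 383 ± 230 CPM under the WT label. Cyp26b1, which degrades retinoic acid, was at 1.96 and 3.07 CPM in KO-label against 1.09 CPM in WT-label high-content libraries, and at 0.41 and 0.297 CPM in KO-label against 0.229 and 0.15 CPM in WT-label low-content libraries. Rabgap1l (log2 fold change 0.48 ± 0.16), Tpd52l1 (0.87 ± 0.28), Olfr872 (0.75 ± 0.25), Olfr39 (0.78 ± 0.26), Zfp981 (0.71 ± 0.24) and Shisa6 (0.99 ± 0.34) complete the set. Rabgap1l, Tpd52l1 and Cdh20 share strand and position with other annotated genes, and the olfactory receptor and zinc finger genes have close relatives, so their counts may be split.

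Among the lower genes Mroh7 had the smallest p in the comparison outside the locus apart from the predicted gene Gm14005. Mroh7 (chromosome 4, 106680417 to 106730925) had 2.73, 2.22, 1.97 and 2.12 CPM in KO-label libraries and 5.09, 3.97 and 5.04 CPM in WT-label libraries. The groups were well apart, with a log2 fold change of -1.11 ± 0.20, a p of 0.000349 and an adjusted p of 0.99973 by edgeR. Its log2 fold change in the M libraries was 0.71 ± 0.35, and the difference F minus M had an unadjusted p of 0.00306 and an adjusted p of 0.906.

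Ier5, an immediate early gene tied to heat shock factor activity, had 3.86, 5.34, 5.74 and 4.26 CPM in KO-label libraries and 8.23, 9.80 and 8.12 CPM in WT-label libraries. Its values did not overlap and its log2 fold change was -0.85 ± 0.20. St8sia1, the enzyme that makes ganglioside GD3, had 1.35, 1.45, 1.05 and 1.19 CPM in KO-label libraries and 2.10, 3.40 and 1.84 CPM in WT-label libraries. It did not overlap either, with a log2 fold change of -0.97 ± 0.30. Of the 15 lower genes 4 had no overlap, where 0.924% of all tested genes had none in this direction. Within each content level all 15 lower genes had no overlap, against 4.04% of all tested genes. The lower genes were likewise picked for small p, in a fit with the content term, so their lack of overlap is a description.

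Of the 15 lower genes, 10 were called higher in high-content than in low-content libraries, against 13.9% of all tested genes. Of the 15 higher genes, 4 (Olfr872, Olfr39, Ano4 and Zfp981) were called lower in high-content libraries, against 0.604% of all tested genes, and Cyp26b1 was called higher. Dnm1, a dynamin of endocytosis, had 9.07 and 7.68 CPM in KO-label against 12.7 CPM in WT-label high-content libraries, and 0.512 and 0.614 CPM in KO-label against 0.954 and 1.43 CPM in WT-label low-content libraries. The label difference was smaller than that between content levels, with log2 values of -0.87 ± 0.23 for the label and 3.65 for content. Itga11, a collagen-binding integrin (-0.90 ± 0.28), Hmcn2, a hemicentin of the matrix (-0.71 ± 0.22), Col27a1, a fibrillar collagen (-0.83 ± 0.26), Trerf1, a transcription factor of steroid-making cells (-0.88 ± 0.28), Stard9, a kinesin (-0.89 ± 0.28), and Cpne2, a calcium-dependent lipid-binding protein (-1.17 ± 0.35), likewise had content differences of 2.05 to 4.06 on the log2 scale. Endothelial and fibroblast marker sums lay the same way within the low-content level, as given above. In the high-content level KO-label libraries 1 and 2 lay on either side of WT-label library 1. Endothelial sums there were 606 and 1180 CPM against 708 CPM, and fibroblast sums 1537 and 3524 CPM against 2165 CPM. The part of other cells in these values was not tested. Arid5a, an RNA-binding protein of inflammatory transcripts (-0.90 ± 0.23), Ccdc88c (-0.71 ± 0.22), Ptpro, a receptor tyrosine phosphatase (-0.67 ± 0.21), and Creld2, a chaperone of the endoplasmic reticulum (-0.69 ± 0.22), also belong to the set.

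**Figure D2:**
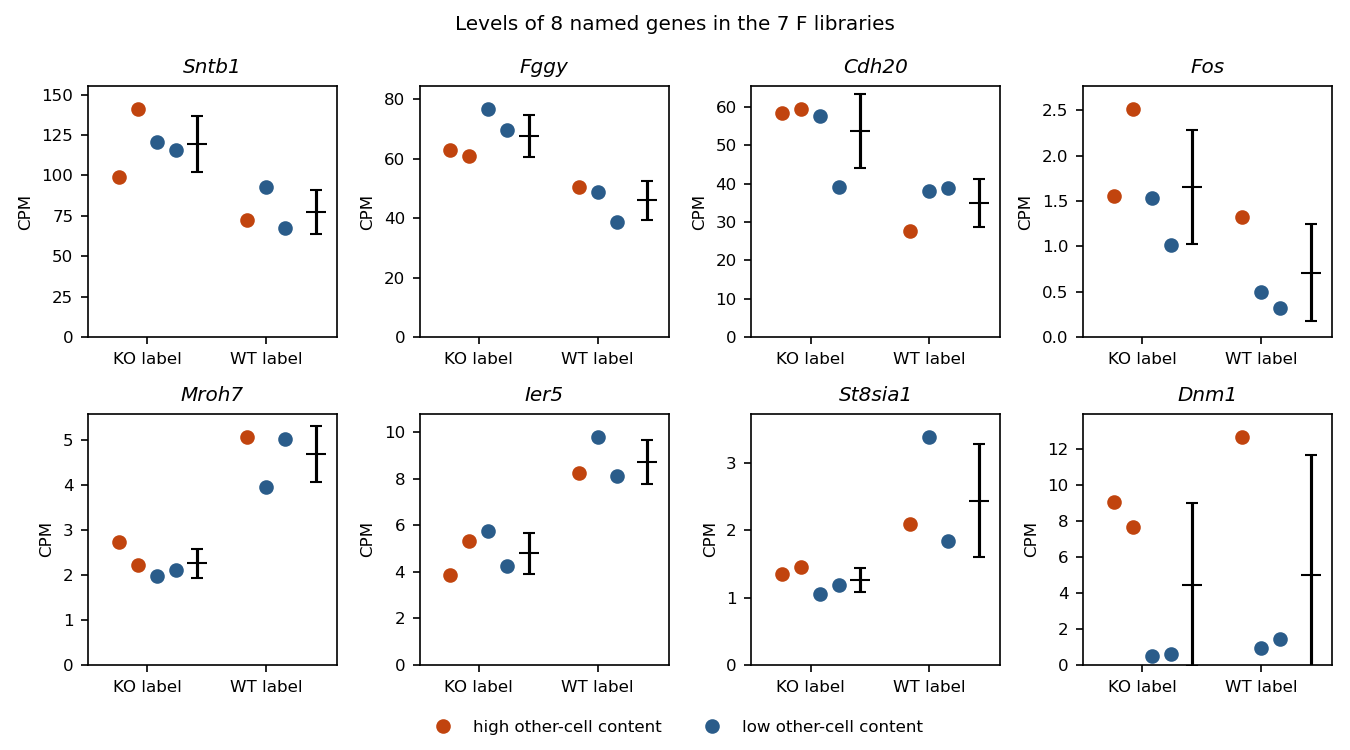
CPM of 8 named genes in the 7 F libraries, KO label left and WT label right, coloured by other-cell content, with the mean and SD beside each group (the axis starts at 0, so the SD bars of Dnm1 are cut there). Sntb1, Fggy and Cdh20 lie higher and Mroh7, Ier5 and St8sia1 lower in every KO-label library, Fos overlaps, and Dnm1 separates by content first.

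In the M libraries 5 of the 15 higher genes were positive and 8 of the 15 lower genes were negative, where 54% of all genes tested in the M libraries were negative. Among those with the same direction there, 0 of the 5 higher and 1 of the 8 lower genes had an unadjusted p below 0.05 in M, against 3.82% of all genes tested in M. The difference F minus M had an unadjusted p below 0.05 for 10 of the 15 higher and 7 of the 15 lower genes, all with an adjusted p above 0.05 and all chosen for their F values. Over all 17455 genes tested for the difference, 0 were called (0%) and 719 had an unadjusted p below 0.05 (4.12%), while DESeq2 called 1, Capn3. The M comparison itself called 2 of 16799 genes (0.0119%), Pgr and its neighbour Gm32014. It called 7 when replicate numbers, which are not known to pair the libraries, were fitted as a block. Gm32014 was not tested in F, where the low-count filter left it out. It had 0.182, 0.147, 0.154 and 0.551 CPM in KO-label F libraries and 0, 0 and 0.0188 CPM in WT-label F libraries. With no low-count filter it was called in F (log2 fold change 4.70, adjusted p = 0.00473 by edgeR).

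**Figure D3:**
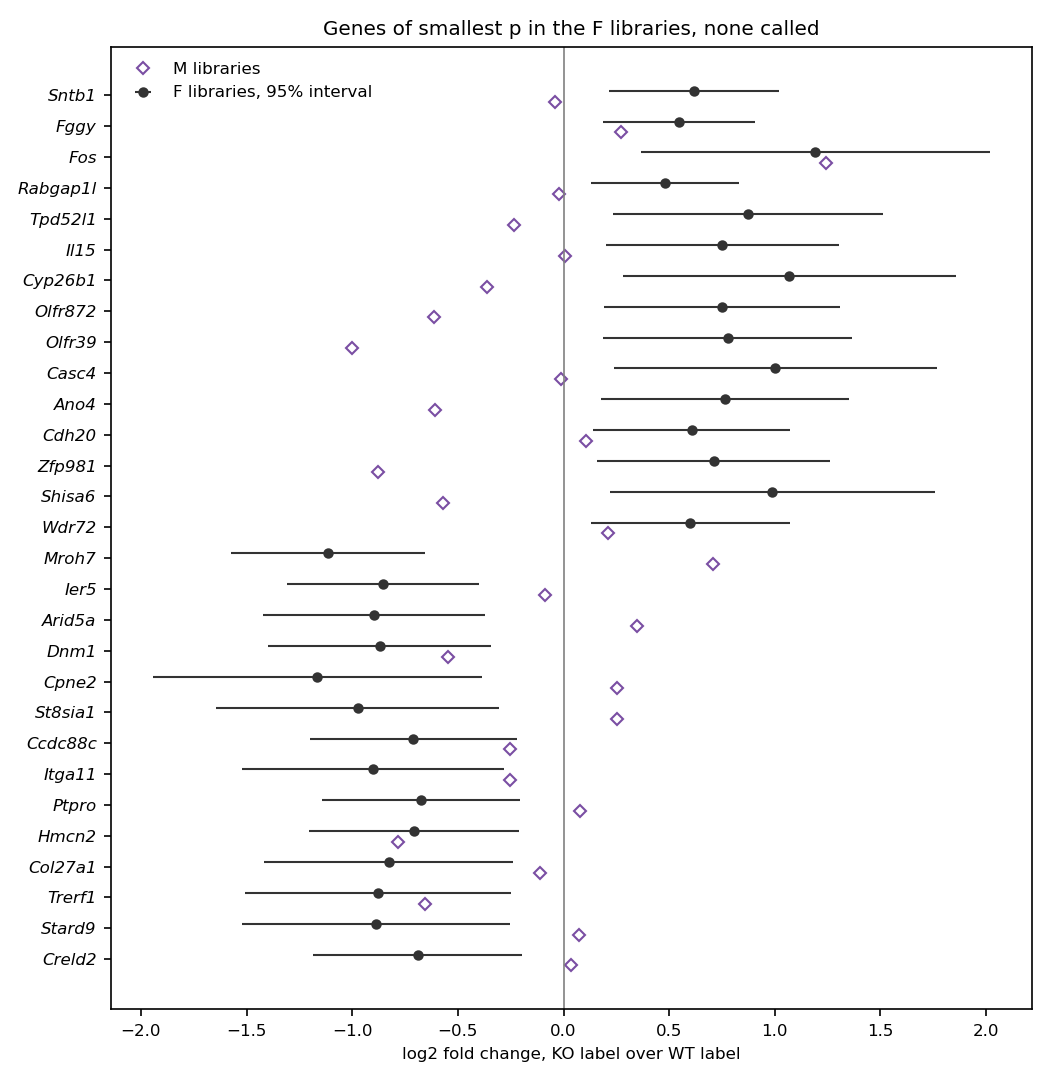
Log2 fold change of the KO label over the WT label for the named genes of smallest p in each direction, with 95% intervals in the F libraries (filled circles) and the estimate in the M libraries (open diamonds). Intervals are unadjusted and the genes were chosen for their F values. Circles lie right of 0 for the higher and left of 0 for the lower genes, while diamonds lie on both sides in either set.

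Capn3 encodes calpain 3, a muscle protease that binds titin, and shares strand and position with Ganc, so its counts may be split. It had 3.27, 0.947, 1.56 and 1.78 CPM in KO-label F libraries and 3.77, 3.70 and 5.17 CPM in WT-label F libraries. The M libraries had 5.34, 5.63, 4.48 and 6.47 CPM under the KO label and 2.88, 2.11, 3.04 and 1.96 CPM under the WT label. The labels were thus apart in both sets and in opposite directions, with log2 fold changes of -1.20 ± 0.39 in F and 1.11 ± 0.20 in M. The difference F minus M was -2.31 ± 0.43, with an adjusted p of 0.906 by edgeR and 0.00101 by DESeq2.

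Gene groups were described by counts, beside 46.4% positive and 53.6% negative log2 fold changes among all tested genes, whose median was -0.02. No tested member of the 35 lists was called. Contractile genes of the adult sarcomere were negative in 37 of 42 members, with a median of -0.18. Cryab, the small heat shock protein that guards desmin and titin, had 49.1, 43.7, 42.1 and 39.6 CPM in KO-label libraries and 62.3, 49.1 and 54.0 CPM in WT-label libraries (log2 fold change -0.39 ± 0.13). Only KO-label library 1 reached the WT-label range. Myot, a Z-disc protein (-0.74 ± 0.29), and Neb, nebulin (-0.65 ± 0.26), were also at an unadjusted p below 0.05. The sarcomere median was -0.10 without KO-label library 2, whose cardiomyocyte marker sum was the lowest, -0.30 without KO-label library 1, and 0.15 in the M libraries.

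Energy genes are taken next. Nuclear genes of oxidative phosphorylation were negative in 49 of 57 members, with a median of -0.11, and 55 of the 57 had intervals within ±1. Without KO-label library 3 they were negative in 36 of 57 (median -0.04), and without WT-label library 2 in 34 of 57 (median -0.07). Atp5k, a subunit of ATP synthase, averaged 5.35 ± 1.40 CPM under the KO label and 7.03 ± 0.321 CPM under the WT label (-0.50 ± 0.20). Mitochondrially encoded transcripts were negative in 12 of 12 tested members, with a median of -0.44 and 2 intervals within ±1. Without KO-label library 3 they were negative in 6 of 12 (median -0.03), and without WT-label library 1 the median was -1.09. Their share of all counts was 0.575%, 0.918%, 0.254% and 0.352% in KO-label libraries and 0.376%, 0.619% and 0.439% in WT-label libraries, so the groups overlapped. Glycolysis genes were negative in 28 of 32 members (median -0.13, -0.08 without KO-label library 2 and -0.21 without WT-label library 2), yet Pfkfb1, which makes and removes fructose 2,6-bisphosphate, had the smallest p with a positive value (0.62 ± 0.25). Fatty acid oxidation genes were positive in 26 of 41 members (median 0.06), but in 15 without KO-label library 3 (median -0.03), in 16 without WT-label library 1 (median -0.05) and in 32 without KO-label library 4 (median 0.18). Ech1, an isomerase of unsaturated fatty acids, averaged 80.1 ± 8.43 CPM under the KO label and 103 ± 9.62 CPM under the WT label without overlap. In citric acid cycle genes 13 of 30 were positive (17 without WT-label library 2), with Pdk1, a kinase that shuts pyruvate dehydrogenase, at 0.34 ± 0.19.

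Heat shock proteins and chaperones were negative in 24 of 26 members, with a median of -0.29, which was -0.15 without WT-label library 1. Dnajb1, a cochaperone of Hsp70, had 6.59, 4.62, 5.81 and 6.04 CPM in KO-label libraries and 12.8, 7.17 and 6.95 CPM in WT-label libraries, without overlap (-0.66 ± 0.24). Hsp90ab1, a cytosolic Hsp90 that also holds steroid receptors, was at -0.36 ± 0.13. Unfolded protein response genes were negative in 24 of 30 members (median -0.19), and in 19 of 31 without WT-label library 2 (median -0.06), among them Atf5 (-0.89 ± 0.29). Immediate early genes were negative in 20 of 29 members (median -0.07). At an unadjusted p below 0.05, 1 was higher and 5 were lower, where 0.64% and 1.41% of all tested genes were. Fos, a subunit of AP-1, had 1.56, 2.52, 1.54 and 1.02 CPM in KO-label libraries and 1.32, 0.496 and 0.319 CPM in WT-label libraries (1.19 ± 0.37), whereas Ier3, a survival factor, averaged 2.75 ± 0.383 CPM under the KO label and 4.56 ± 1.20 CPM under the WT label (-0.71 ± 0.24).

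Fetal and stress-induced cardiac genes were negative in 24 of 30 members, with a median of -0.29 in F and 0.20 in M. The F median was -0.11 without KO-label library 3, -0.16 without WT-label library 2 and -0.46 without KO-label library 4. Gdf15, a stress cytokine, had 0.424, 0.457, 0.282 and 0.508 CPM in KO-label libraries and 0.738, 1.34 and 0.77 CPM in WT-label libraries. These are low counts without overlap between the groups (-1.14 ± 0.38). Mybpc2, the fast-muscle form of myosin-binding protein C, was at -0.92 ± 0.37, and Runx1, a transcription factor of stressed myocytes and of blood cells, was at -0.49 ± 0.18. Core cardiac transcription factors were negative in 15 of 24 members (median -0.06, and 0.05 without KO-label library 2), with Hand2 at -0.41 ± 0.21. Atrial and conduction genes were positive in 9 of 20 members, and Etv1, a factor of fast conduction, averaged 28.7 ± 6.70 CPM under the KO label and 19.1 ± 2.21 CPM under the WT label without overlap (0.55 ± 0.20).

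Calcium and ion channel genes divided about evenly. Calcium handling genes were positive in 20 of 41 members, and S100a1, a regulator of the ryanodine receptor, averaged 13.1 ± 3.97 CPM under the KO label and 18.3 ± 1.74 CPM under the WT label (-0.58 ± 0.21). Hrc, a calcium-binding protein of the sarcoplasmic reticulum, was at -0.57 ± 0.24. Channel genes were positive in 13 of 30 members (median -0.06), but in 7 of 30 without KO-label library 1 (median -0.17). Kcnn2, a calcium-activated potassium channel, was at 0.40 ± 0.15. Genes of the intercalated disc and dystrophin complex were positive in 19 of 35 members, among them Sntb1 described above.

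Genes tied to progesterone action showed no shared direction in the F libraries. Of 25 tested genes known as receptor targets in the uterus, 13 were positive and 12 negative (median 0.09, and -0.17 without WT-label library 1). Cebpb, a factor of uterine decidualisation, averaged 2.00 ± 0.41 CPM under the KO label and 3.12 ± 0.889 CPM under the WT label (-0.74 ± 0.25), and Gli1, a hedgehog factor, was at -1.09 ± 0.47 on levels below 1 CPM. Of 19 steroid receptors, membrane progesterone receptors and cofactors, 12 were positive and 7 negative, with 0 at an unadjusted p below 0.05 and 18 intervals within ±1. The mineralocorticoid receptor gene Nr3c2 averaged 954 ± 80.2 CPM under the KO label and 941 ± 63.1 CPM under the WT label. The glucocorticoid receptor gene Nr3c1 averaged 315 ± 58.8 CPM under the KO label and 324 ± 82.9 CPM under the WT label, and both are named for their role. Nr2c2, an orphan receptor, was at 0.31 ± 0.16. Glucocorticoid-responsive genes were positive in 17 of 28 members (median 0.03), and in 9 of 28 without WT-label library 1 (median -0.20). In the M libraries the uterine targets were 2 positive and 19 negative (median -0.21). The receptors and cofactors there were 4 positive and 15 negative, and the glucocorticoid-responsive genes 8 and 20. Of all genes tested in M, 54% were negative. Lists not tied to progesterone leaned to either side in M. Interferon-stimulated genes were 5 positive and 35 negative there, and nuclear genes of oxidative phosphorylation 48 and 9. Of the 25 uterine targets tested in F, 11 were called higher in high-content libraries and 0 lower, against 13.9% and 0.604% of all tested genes.

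Signalling and growth lists had medians between -0.05 and 0.03, and the sign of each turned with at least 1 library left out. Adrenergic, cyclic nucleotide and hypertrophy genes were negative in 33 of 49 members, with Pde9a, a cGMP phosphodiesterase, at -0.54 ± 0.20. Insulin, growth factor and mTOR genes were positive in 20 of 39 members. Socs2, a brake on growth hormone signalling, had 49.9, 34.8, 43.1 and 80.6 CPM in KO-label libraries and 83.2, 84.7 and 74.4 CPM in WT-label libraries, with KO-label library 4 inside the WT-label range. Its log2 fold change was -0.63 ± 0.24 in F and -0.72 ± 0.22 in M. Cell cycle genes were positive in 20 of 44 members, and Ccnd2, a G1 cyclin, was at -0.39 ± 0.16 in F and -0.39 ± 0.12 in M. Cholesterol and fatty acid synthesis genes were positive in 17 of 33 members, with Sqle, squalene epoxidase, at 1.05 ± 0.43 on levels below 1 CPM. Ubiquitin ligase and autophagy genes were positive in 16 of 33 members, and Bnip3l, a mitophagy receptor, was at 0.40 ± 0.22.

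Clock and interferon genes vary with time of day and infection and were listed for that reason. Core clock and output genes were negative in 18 of 24 members in F (median -0.13) and in 19 of 24 in M (median -0.38). Without WT-label library 1 the F split was 12 and 12 (median -0.01), and without KO-label library 3 it was 21 of 24 negative (median -0.27), with 19 of 24 (median -0.29) without WT-label library 2. Interferon-stimulated genes were positive in 21 of 38 members (median 0.02, and -0.05 without KO-label library 2), and Rtp4 was at 0.50 ± 0.22 in F. The list was positive in 5 of 40 members in M (median -0.41). Of its 38 members in F, 22 were called higher in high-content libraries, against 13.9% of all tested genes. Without the content term 32 of the 38 were positive (median 0.27), where 51.6% of all tested genes were. Extracellular matrix and integrin genes were negative in 36 of 46 members (median -0.26), and 33 of the 46 were called higher in high-content libraries, against 13.9% of all tested genes. Without the content term 37 of 46 were positive (median 0.22), so the direction turns with that term. Col6a2, a collagen VI chain, was at -0.80 ± 0.27 with the content term and 0.15 without it.

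**Figure D4:**
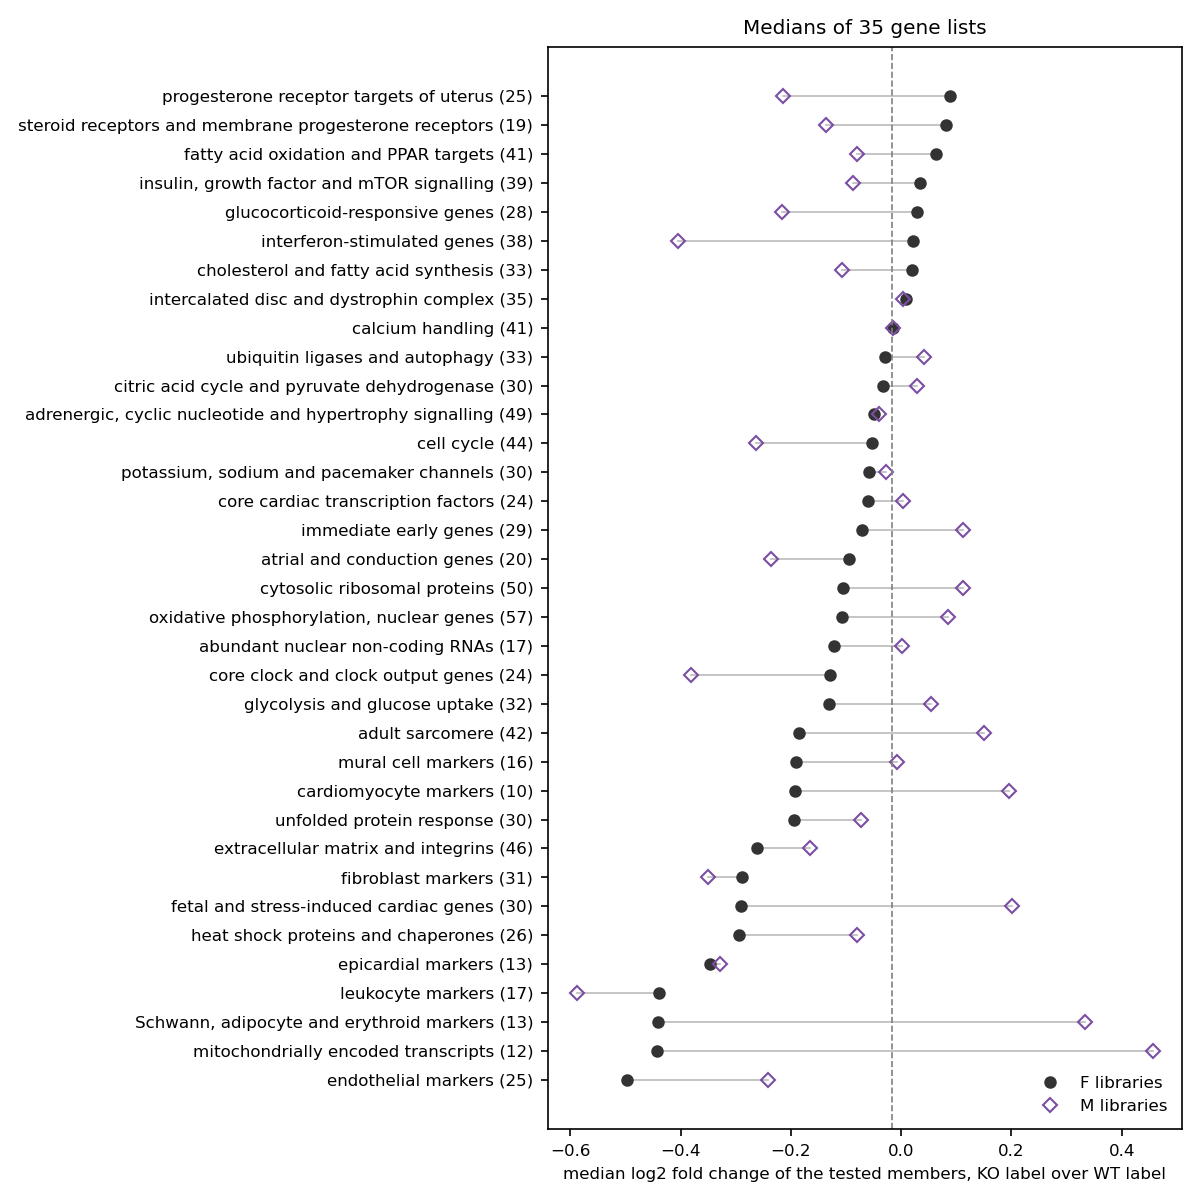
Median log2 fold change of the KO label over the WT label for the tested members (number in brackets, F libraries) of 35 gene lists, in the F libraries (filled circles) and the M libraries (open diamonds); the dashed line is the F median of all tested genes. Marker lists of other cells, mitochondrial transcripts, heat shock and sarcomere genes lie left of the line in F, and sarcomere and mitochondrial transcripts lie right of it in M.

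The log2 fold changes also ran with gene length. Among protein-coding genes the median log2 fold change was -0.20 for 260 genes under 2 kb, -0.13 for 972 genes of 2 to 5 kb, -0.09 for 1579 genes of 5 to 10 kb and -0.05 for 2552 genes of 10 to 20 kb. It was 0.00 for 3844 genes of 20 to 50 kb, 0.03 for 2119 genes of 50 to 100 kb, 0.05 for 1310 genes of 100 to 200 kb and 0.05 for 953 longer genes. Short genes thus leaned lower and long genes higher under the KO label, with 203 of 260 negative in the shortest class and 581 of 953 positive in the longest. In the M libraries the order ran the other way, with medians of 0.10 in the shortest and -0.09 in the longest class. The rank correlation across genes, which are not independent replicates and share the libraries, was 0.235 in F and -0.15 in M.

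The share of protein-coding counts in genes under 10 kb shows which libraries carry this. It was 3.15%, 3.38%, 2.61% and 2.79% in KO-label libraries and 3.16%, 3.07% and 3.25% in WT-label libraries, lowest in KO-label libraries 3 and 4. Without KO-label library 3 the longest class exceeded the shortest by 0.14 on the log2 scale, and without WT-label library 1 by 0.45, the lowest and the highest of the values with 1 library left out. Sarcomere, oxidative phosphorylation, heat shock, ribosomal and immediate early genes include many short genes, and the part of length in their counts was not tested. Cytosolic ribosomal protein genes, nearly all short, were negative in 41 of 50 members in F (median -0.11) and positive in 40 of 50 in M (median 0.11), with Rpl7a at -0.32 ± 0.20 in F. The F split was 25 and 25 without KO-label library 3 and 26 of 50 negative without WT-label library 2, while the median was -0.35 without WT-label library 1.

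**Figure D5:**
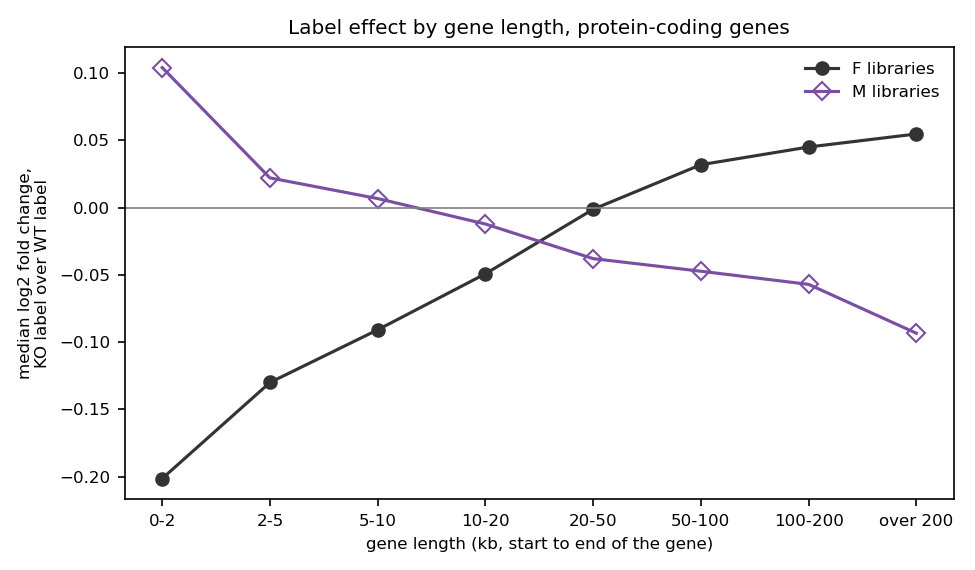
Median log2 fold change of the KO label over the WT label in 8 classes of gene length (kb) for protein-coding genes, in the F libraries (filled circles) and the M libraries (open diamonds). The F line climbs with length while the M line descends.

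Small structural RNAs are here the annotated small nuclear, small nucleolar and Cajal body RNAs, ribozymes and miscellaneous RNAs such as Rn7sk, Rn7s1 and Rny1. They were negative in 41 of 49 tested members in F with a median of -0.79, and positive in 53 of 66 in M with a median of 0.39. The F median was -0.49 without KO-label library 3, -0.49 without WT-label library 2 and -1.51 without WT-label library 1. This class was set after its values were seen. Rn7sk, the RNA that holds the elongation factor P-TEFb inactive, had 14831, 8282, 6299 and 8153 CPM in KO-label libraries and 10421, 20182 and 18581 CPM in WT-label libraries. The groups overlapped through KO-label library 1 and WT-label library 1, both high-content, and the log2 fold change was -0.86 ± 0.35 in F and 0.73 ± 0.42 in M. Rnu12, the U12 RNA of the minor spliceosome, had 326, 99.8, 18.2 and 41.1 CPM in KO-label libraries and 174, 234 and 160 CPM in WT-label libraries. The KO-label values, from 18.2 to 326 CPM, ran both below and above all WT-label values, and its adjusted p was 0.99973. In the low-content libraries alone it was called, with a log2 fold change of -2.74 (adjusted p = 0.034 by edgeR), as were Rnu11 (-2.70), Snord104 and 2 predicted genes, all lower under the KO label. Meg3, a long non-coding RNA of other cell types as well, was at -0.76 ± 0.29 and was higher in the high-content libraries.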

How the data were processed

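The deposited values are raw counts per gene over whole gene spans for 15 libraries; reads were aligned with STAR 2.5.3a and counted with featureCounts 1.5.0 on GRCm38 (mm10), per the submitters' processing notes. The strand setting is known only from an abbreviation in the deposited names, which no source used here spells out. Gene classes came from matched GENCODE identifiers. The label effect was fitted with edgeR 4.0.16 (R 4.3.3; TMM factors, filterByExpr, robust quasi-likelihood test, Benjamini-Hochberg adjustment at 0.05), with 2 content levels (Pecam1 at or above 20 CPM, or below) as a second term. DESeq2 1.42.0 and limma 3.58.1 (voom) were alternatives, and the code was tested on simulated data. The genes named are, beyond 1 Mb of Pgr and without predicted names, the 15 of smallest p in each direction with a mean of at least 1 CPM, and up to 3 per list. The members and lists were chosen with earlier results of these data known. Deviations of same-numbered libraries correlated at 0.235 to 0.691 in M and at -0.436 to 0.740 in F, with content not removed. KO-label M library 2 correlated best with WT-label M library 1. In M and in F, number 2 had the weakest correlation and joins a high-content and a low-content library. These correlations do not show that replicate numbers pair samples. Counting error alone sets the floor of 3 counts. Some genes are not reported here. No sequences are shown.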

Additional observations from a re-analysis of the deposited data

Results flagged for a closer look

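In the KO-label F group, 3 of 81 values examined for a library far from the other 3 met that criterion, and chance alone gives about 1 in 20 groups. Cdh20 had 39.1 CPM in KO-label library 4, against 57.5 to 59.4 CPM in the other KO-label libraries. Shisa6 had 26.9 CPM in KO-label library 3, against 7.74 to 9.28 CPM in the others. Wdr72 had 12.2 CPM in KO-label library 3, against 10.1 to 10.3 CPM in the others. Reads of Y-linked genes stood at 3.07% of the M mean in KO-label library 2 and 3.07% in WT-label library 2, above the other F libraries. The source of these reads was not tested. Uty, a Y-linked gene, was among the genes called in F with no low-count filter (log2 fold change -2.08).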

How the results depend on the processing

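In the F libraries 1 gene was called, 0 of them beyond 1 Mb of Pgr. DESeq2 called 4 and 2, limma-voom 0 and 0, no low-count filter 51 and 47, no content term 0 and 0, the low-content libraries alone 6 and 5, the fit without both libraries with Y-linked reads 5 and 4, the replicate block with the content term 286 and 284 with 1 residual degree of freedom, the block without that term 0 and 0, and the label averaged over F and M libraries, a fit chosen after seeing the data, 3 and 0. Leaving out each F library in turn gave 0 to 1 genes and 0 beyond the locus. The correlations of same-numbered F libraries were 0.740, -0.436 and 0.520, which does not show that replicate numbers pair the samples. Upper-quartile factors, the smaller gene table, continuous content and all 15 libraries each gave 1 and 0. The M count of 2 became 27 with DESeq2, 0 with no content term, 249 with no filter and 7 with the block, and 0 to 4 with each library left out: 0 without KO-label M library 4 or WT-label M library 1, and 4 without KO-label M library 2. The difference F minus M, with 0 called, had 1 with DESeq2, 130 with no filter and 0 to 1 with each library left out (Capn3 without KO-label F library 1, adjusted p = 0.0227 by edgeR). Of 81 genes examined, 10 changed sign in at least 1 setting. With no content term the log2 fold changes were 0.15 for Col6a2, 0.21 for Egfl7, 0.21 for Pdgfrb and 0.32 for Muc16. With the replicate block without the content term they were 0.21 for Dnm1, 0.23 for Itga11, 0.35 for Hmcn2, 0.30 for Runx1, 0.18 for Pde9a, 0.15 for Meg3, 0.22 for Col6a2, 0.48 for Egfl7, 0.30 for Pdgfrb and 0.21 for Muc16. Medians of 10 of 35 lists were negative in all 19 settings, with sarcomere genes from -0.30 to -0.10 and heat shock genes from -0.38 to -0.14, and the other 25 changed sign in at least 1. The cause of these moves was not tested. Depth and the number of libraries limit the comparison to the intervals given above.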

Other observations

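The genes and the region below were chosen after their values were seen. Samd5, which encodes a protein with a sterile alpha motif, had 15.7, 40.2, 38.4 and 44.8 CPM in KO-label F libraries and 59.0, 64.3 and 68.6 CPM in WT-label F libraries. In the M libraries it had 35.8, 16.3, 22.6 and 17.7 CPM under the KO label and 68.8, 49.4, 37.8 and 38.5 CPM under the WT label. The labels did not overlap in either set, with log2 fold changes of -0.85 ± 0.28 in F and -1.19 ± 0.23 in M, with adjusted p of 0.99973 in F and 0.572 in M by edgeR. With the replicate block, whose numbers are not known to pair the libraries, Samd5 was called in M (log2 fold change -0.94, adjusted p = 0.0467 by edgeR). DESeq2 called it in M at an adjusted p of 0.00235. With no low-count filter Samd5 was called in F (log2 fold change -0.84, adjusted p = 0.00659 by edgeR) and in M. It was also called in F with the replicate block and the content term (-1.38), a fit with 1 residual degree of freedom. All 8 tested genes of the interval between Sash1 and Stxbp5 on chromosome 10 (9069419 to 9675208, GRCm38), 7 of them predicted genes, had negative log2 fold changes. These ran from -1.38 to -0.69 in F and from -1.19 to -0.27 in M, where 53.6% and 54% of all tested genes were negative. The predicted genes lie 3′ of Samd5 on the same strand, and whether they are transcripts separate from it was not tested. The flanking genes Sash1 and Stxbp5 were at 0.02 and 0.08 in F and at -0.13 and -0.20 in M.

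Pdgfd, a platelet-derived growth factor gene 2.52 Mb from Pgr, had 56.6, 89.5, 45.1 and 30.7 CPM in KO-label F libraries and 74.7, 93.6 and 121 CPM in WT-label F libraries, which overlapped. In the M libraries it had 48.3, 70.0, 41.2 and 41.0 CPM under the KO label and 110.2, 114.0, 114.1 and 149 CPM under the WT label, without overlap. The log2 fold changes were -0.97 ± 0.33 in F and -1.37 ± 0.19 in M. The M adjusted p was 0.12 by edgeR, 0.0036 with the replicate block, 0.0209 without KO-label M library 2 and 6.65e-07 by DESeq2. The F adjusted p was 0.99973 by edgeR. With no low-count filter Pdgfd was called in F (log2 fold change -0.96, adjusted p = 0.00143 by edgeR) and in M. It was also called in F with the replicate block and the content term (-0.93), a fit with 1 residual degree of freedom. In the fit that averaged the label over F and M libraries, 3 of 17455 genes were called, all within 1 Mb of Pgr, and Pdgfd had the smallest adjusted p beyond it, 0.128 by edgeR.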
